A study of Mus musculus with 6 samples.

Results

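The genes described here encode the machinery and cargo receptors of autophagy, 39 genes of 22105 with a gene identifier in the deposited table. They were chosen by name and not by a rule on their values, but earlier results of these data were known. The cells were 4T1, a line derived from a mouse mammary carcinoma, in 2 groups of 3 libraries harvested 24 h after treatment. The treated group received nanoparticles named CM-PEG-PLGA@DOX/R848, dosed to carry the equivalent of 2 µg/mL of doxorubicin (DOX in the labels), a topoisomerase II poison given with R848, a Toll-like receptor agonist. The control group received phosphate-buffered saline (PBS). Cells given free drugs or empty particles were not analysed here, so the parts played by carrier, doxorubicin and R848 cannot be told apart. The labels do not say whether the 3 samples of a group were separate cultures, so each p-value reflects no more than how far these 6 samples scatter, and that scatter may be technical.

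Autophagy encloses cytoplasm in a double membrane and delivers it to the lysosome. A kinase complex built on ULK1 starts the process, a lipid kinase complex marks the site with phosphatidylinositol 3-phosphate (PI3P), and lipid-transfer and scrambling proteins expand the membrane. Ubiquitin-like conjugation then fixes proteins of the LC3 and GABARAP families to the membrane, where cargo receptors bind them, and SNARE proteins fuse the closed vesicle with the lysosome. Transcript levels do not measure the flow of cargo through this pathway, which also depends on phosphorylation and protein turnover.

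Values are FPKM, fragment numbers scaled to transcript length and to the fragments mapped in the library, so levels can be compared between genes per length. All 39 genes were tested, with limma on log2(FPKM + 1) and Benjamini-Hochberg adjustment over 10863 genes that reached 1 FPKM in at least 3 of the 6 libraries. A gene is called higher or lower with nanoparticles at an adjusted p under 0.05, and fold changes on the log2(FPKM + 1) scale understate the change of low genes. In these data 86.4% of all tested genes were called, 40.5% higher and 46% lower. The number of genes at 1 FPKM or more was 10596 to 10631 per library, but genes above 0 numbered 13544 to 13808 with PBS and 18319 to 18509 with nanoparticles. The read depth is unknown. Of 9 mammary epithelial markers, 7 reached 1 FPKM, with Krt18 at 514 ± 6.33 FPKM (mean ± SD, n = 3) with PBS, while Epcam stayed at 0.551 ± 0.176 FPKM. In sum they gave 825 to 838 FPKM in PBS libraries and 1130 to 1170 FPKM in treated ones, mostly from Krt18 and Krt8, while Cldn3 was lower (24.7 to 17 FPKM). Of 12 macrophage and myeloid markers, 8 were under 1 FPKM in every library, and Ptprc, Adgre1, Tyrobp, Fcer1g, C1qa and C1qb were listed at 0 in all PBS libraries. The myeloid markers summed to 22.9 to 26.6 FPKM in PBS libraries and 43.3 to 48.9 FPKM in treated ones. Cd68 was higher (12.2 to 35.3 FPKM) and Cd14 lower (11.9 to 7.13 FPKM). Csf1r (0.0416 to 1.45 FPKM) and Mpeg1 (0.0824 to 1.77 FPKM) were also called higher. Both passed the filter through the nanoparticle libraries alone, which fixed their direction. The fibroblast markers summed to 32.7 to 33 FPKM with PBS and 7.69 to 9.49 FPKM with nanoparticles, mostly from Pdgfra and Pdgfrb, and the endothelial markers to 8.36 to 8.61 and 2.39 to 2.65 FPKM, mostly Cdh5. Lymphocyte markers summed to at most 2.94 FPKM in any library. The part of other cell types in the results below was not tested. In these bulk samples, fewer cells of a type and less RNA per cell cannot be told apart.

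Promoter windows from RefSeq on GRCm38.p6, from 250 bases before to 50 after each annotated start, were matched by symbol for 33 of the 39 genes, in 39 windows. They were searched on both strands for short sequences read by regulators of autophagy genes. CACGTG, the E-box core of the CLEAR element bound by TFEB and TFE3, occurred in 4 of the 39 windows, or 10.3%, against 7.15% of all 32851 windows. Its longer palindrome TCACGTGA, which contains CACGTG, occurred in 1 window, that of Atg3, and in 0.974% of all windows. The antioxidant response element core TGACNNNGC occurred in 7 windows, of Atg13, Map1lc3b, Tax1bp1, Ulk2 and Vmp1, or 17.9% against 12.4% of all windows. Several of these windows belong to Vmp1 alone, so this is not a share of genes. Neither TGATGNAA, a core shared by ATF4 and C/EBP composite elements, nor GTAAACA, a forkhead core, was found in a window of these genes, and they occurred in 3.97% and 3.65% of all windows. All 4 windows with CACGTG are printed, because levels of Tfeb, whose product reads this core, are given below. They were chosen after the matches and the genes' directions had been seen. Atg3 and Atg14 were higher with nanoparticles, and Atg5 and Atg7 were lower, a split like that of the 39 genes as a whole, from which nothing is read. They are written 5′ to 3′ on the gene's strand, and capitals mark CACGTG or TCACGTGA.
Atg3: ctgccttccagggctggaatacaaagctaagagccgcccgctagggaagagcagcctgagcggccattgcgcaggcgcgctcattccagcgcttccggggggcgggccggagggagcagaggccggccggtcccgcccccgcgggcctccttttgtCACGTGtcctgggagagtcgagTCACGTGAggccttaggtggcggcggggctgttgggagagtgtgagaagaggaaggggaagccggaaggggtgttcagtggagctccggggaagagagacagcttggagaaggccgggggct
Atg14: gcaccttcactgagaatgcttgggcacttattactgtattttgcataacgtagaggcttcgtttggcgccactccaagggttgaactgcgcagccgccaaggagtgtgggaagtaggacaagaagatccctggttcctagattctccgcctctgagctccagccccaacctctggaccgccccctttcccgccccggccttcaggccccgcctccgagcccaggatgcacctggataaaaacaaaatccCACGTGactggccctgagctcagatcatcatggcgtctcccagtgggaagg
Atg5: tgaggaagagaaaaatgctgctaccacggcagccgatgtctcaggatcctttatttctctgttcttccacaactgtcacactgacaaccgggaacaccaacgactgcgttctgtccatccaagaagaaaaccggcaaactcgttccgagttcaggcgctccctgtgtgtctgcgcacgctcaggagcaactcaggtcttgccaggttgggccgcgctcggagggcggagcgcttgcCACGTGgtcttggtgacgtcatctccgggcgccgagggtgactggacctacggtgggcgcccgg
Atg7: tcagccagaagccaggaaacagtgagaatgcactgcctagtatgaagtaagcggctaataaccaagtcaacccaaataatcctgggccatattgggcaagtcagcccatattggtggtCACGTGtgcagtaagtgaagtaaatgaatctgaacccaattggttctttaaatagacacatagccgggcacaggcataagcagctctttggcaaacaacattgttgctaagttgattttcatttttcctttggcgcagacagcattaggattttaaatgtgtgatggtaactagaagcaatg
The Atg3 window is chr16:45158579-45158878 on the plus strand, with CACGTG starting 94 and 71 bases before the start site. The Atg14 window is chr14:47568385-47568684 on the minus strand, with the core starting 1 base before the start site. The Atg5 window is chr10:44268089-44268388 on the plus strand, with the core 14 bases before the start. The Atg7 window is chr6:114670846-114671145 on the plus strand, with the core 132 bases before the start. In GENCODE M21 the Atg7 gene begins at 114643097 and the minus-strand Atg14 gene at 47570649. Both windows therefore lie inside the genes as annotated there. For each of these genes it was the only window searched, so the sequence at the GENCODE gene start was not examined. A match describes letters only, and binding was not measured.

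Of the 39 autophagy genes, 17 were higher with nanoparticles, 16 were lower and 6 were not called. The 33 called genes make up 84.6%, a share near the 86.4% of all tested genes. The median log2 fold change was 0.05 over the 39 genes and -0.06 over all tested genes, and the range was -1.85 to 1.26. Changes of at least 2-fold on this scale were seen in 2 genes that rose, Atg101 and Becn1, and in 6 that were lower, Uvrag, Atg4c, Ambra1, Ulk2, Stx17 and Atg10, of which Atg10 could only be called lower because it passed the filter through the PBS libraries alone. Such changes were found in 10.2% (higher) and 13.5% (lower) of all tested genes. In 36 of the 39 genes the libraries of the groups did not overlap, against 87.2% of all tested genes. With each library rescaled to the same sum (TPM), the median of all genes moved by -0.131 on the log2 scale. The split became 14 higher and 18 lower, beside 34.5% and 51.4% of all genes tested on that scale. The filter at 1 and the added 1 were kept on these larger values, so 11508 genes were tested. The effect of rescaling alone cannot be told apart from that of the filter and the added 1. Median-of-ratios scaling gave 19 higher and 16 lower, beside 4699 and 4690 of all 10866 genes tested on that scale.

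**Figure D1:**
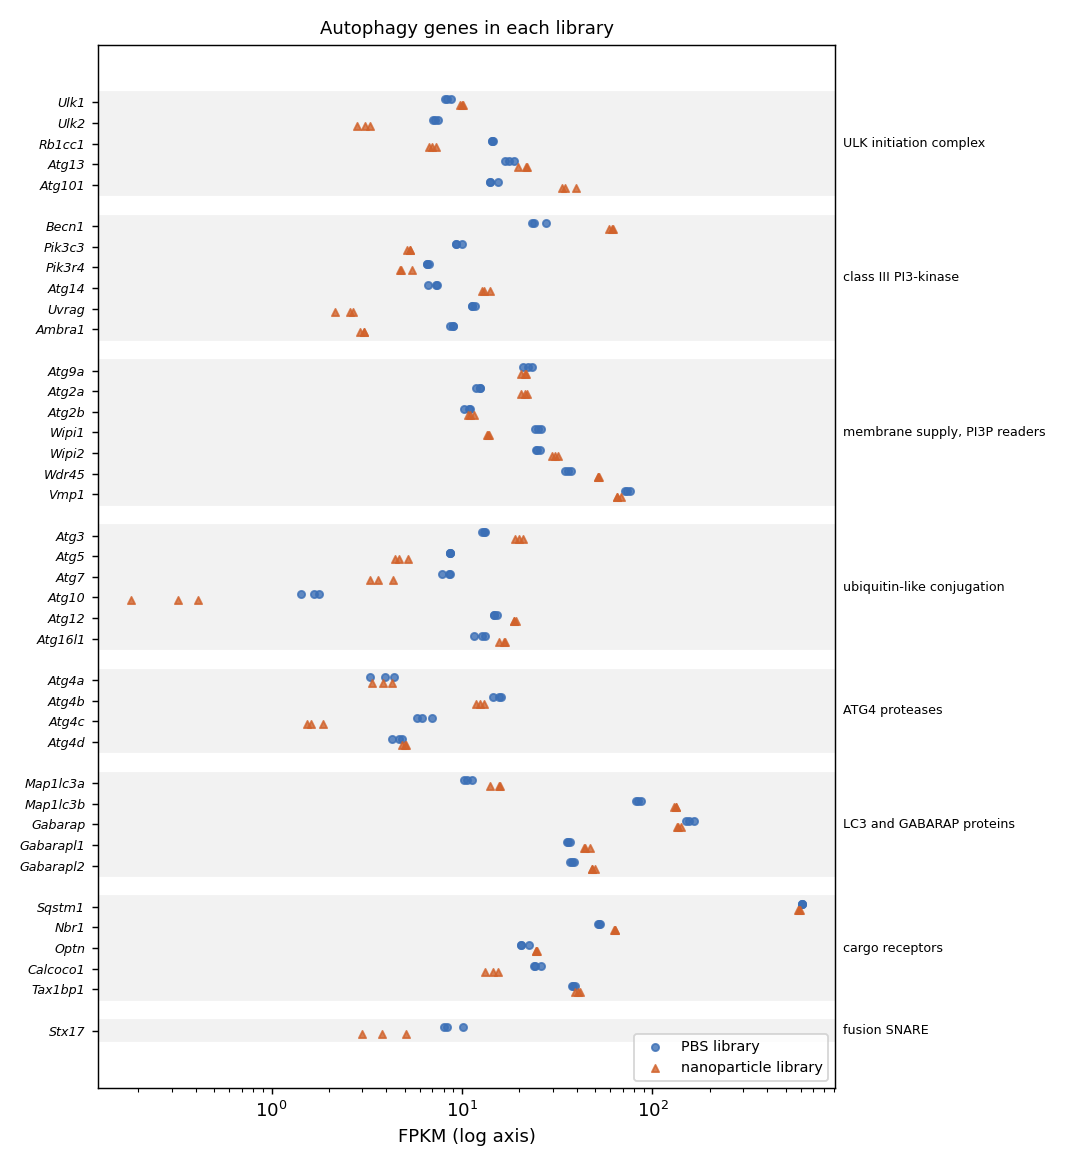
FPKM (log axis) of the 39 autophagy genes in each library, grouped by role, with circles for the 3 PBS libraries and triangles for the 3 nanoparticle libraries. Levels run from Atg10, under 2 FPKM in every library, to Sqstm1, at 583 to 609 FPKM.

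The 5 genes of the ULK initiation complex were all called, in both directions. Atg101, which encodes the HORMA-domain partner of ATG13 that stabilises the complex, stood at 14, 15.4 and 14 FPKM in the PBS libraries and at 34.6, 33.6 and 39.9 FPKM in the nanoparticle libraries. It was 2.49-fold higher with nanoparticles, the largest rise among the 39 genes, with no overlap (log2 fold change 1.26 with a standard error of 0.066; limma adjusted p = 8.81e-08). Atg13, the adaptor that links the kinase to the rest of the complex, stood at 16.9, 18.8 and 17.6 FPKM with PBS and 19.7, 21.6 and 21.9 FPKM with nanoparticles. Its groups were separate by a small margin (log2 fold change 0.23; limma adjusted p = 0.00255), and it did not pass on the TPM scale, where its log2 fold change was 0.09.

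The paralogous kinases Ulk1 and Ulk2 went in opposite directions. Ulk1, the main starting kinase, read 8.15, 8.78 and 8.37 FPKM with PBS and 9.96, 9.72 and 10.1 FPKM with nanoparticles (log2 fold change 0.21; limma adjusted p = 0.00185). On the TPM scale that rise was 0.08 and did not pass. Ulk2 read 7.52, 7.04 and 7.25 FPKM with PBS and 3.11, 2.8 and 3.29 FPKM with nanoparticles, a fall of all 3 treated libraries below all controls (log2 fold change -1.03 with a standard error of 0.063; limma adjusted p = 1.79e-07). The ratio of Ulk1 to Ulk2 transcript levels went from 1.16 ± 0.0816 to 3.25 ± 0.207 (mean ± SD, n = 3; exact two-sided permutation p = 0.1, the smallest that 3 against 3 libraries allow). Both genes had separate groups in opposite directions, so that p was fixed in advance and adds no support. Rb1cc1, which encodes the scaffold FIP200, read 14.5, 14.3 and 14.3 FPKM with PBS and 7.34, 6.95 and 6.74 FPKM with nanoparticles, 2.05-fold lower (log2 fold change -0.94).

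The class III PI3-kinase complex showed the widest spread of the roles, with 2 genes higher and 4 lower. Becn1, which encodes the scaffold Beclin 1, read 27.7, 23.4 and 23.8 FPKM with PBS and 61.6, 61.9 and 59.2 FPKM with nanoparticles. It was 2.44-fold higher with no overlap (log2 fold change 1.25 with a standard error of 0.059; limma adjusted p = 4.09e-08). Of its exonic bases in GENCODE M21, 43.9% overlap Cntd1 on the opposite strand, itself at means of 0.0775 FPKM (PBS) and 0.0478 FPKM (nanoparticles). Atg14, the subunit that directs the complex to autophagosome formation, read 7.37, 7.3 and 6.66 FPKM with PBS and 12.8, 14 and 13 FPKM with nanoparticles, 1.87-fold higher (log2 fold change 0.82).

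Uvrag, the subunit that takes the place of ATG14 in the complex acting on endosomes, had the largest fall of the 39 genes. It read 11.7, 11.3 and 11.3 FPKM with PBS and 2.15, 2.57 and 2.67 FPKM with nanoparticles, 4.65-fold lower (log2 fold change -1.85 with a standard error of 0.067; limma adjusted p = 4.45e-09). The Atg14 to Uvrag ratio was therefore under 1 in each PBS library, at 0.628, 0.644 and 0.592, and 5.95, 5.47 and 4.89 in the nanoparticle libraries (exact two-sided permutation p = 0.1, the smallest possible). That p too was fixed in advance by the opposite, separate groups of the genes. Of the exonic bases of Uvrag, 17.6% overlap Gm45187 on the opposite strand. Pik3c3, the catalytic subunit VPS34, fell from 9.52 ± 0.429 to 5.27 ± 0.0976 FPKM (n = 3 per group; log2 fold change -0.75). Pik3r4, the regulatory subunit VPS15, fell less, from 6.59 ± 0.0824 to 5 ± 0.385 FPKM (log2 fold change -0.34). Ambra1, a regulator of Beclin 1 and ULK1, read 8.96, 8.93 and 8.67 FPKM with PBS and 3.05, 3.07 and 2.93 FPKM with nanoparticles, 2.93-fold lower (log2 fold change -1.29).

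Among 7 genes of membrane supply and PI3P reading, 3 rose, 2 fell and 2 were not called. Atg2a, one of a pair of lipid-transfer paralogues, read 12.4, 12.4 and 11.9 FPKM with PBS and 20.5, 21.9 and 21.4 FPKM with nanoparticles (log2 fold change 0.75). Its paralogue Atg2b read 10.9, 10.2 and 11 FPKM with PBS and 11.5, 11 and 10.7 FPKM with nanoparticles, with overlapping groups (log2 fold change 0.05; limma adjusted p = 0.354). The Atg2a to Atg2b ratio was 1.15 ± 0.0693 with PBS and 1.92 ± 0.125 with nanoparticles (n = 3 per group).

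The PI3P-binding paralogues Wipi1 and Wipi2 were at the same mean level with PBS and apart with nanoparticles. Wipi1 read 24.3, 25 and 25.9 FPKM and then 13.5, 13.8 and 13.7 FPKM, a fall (log2 fold change -0.83; limma adjusted p = 2.28e-08). Wipi2, which recruits ATG16L1, read 25.8, 24.5 and 24.7 FPKM and then 32, 30.6 and 29.7 FPKM, a rise (log2 fold change 0.29; limma adjusted p = 7.5e-05). Their ratio, Wipi2 over Wipi1, went from 1 ± 0.0556 to 2.25 ± 0.113. Wdr45, the WIPI4 gene, rose from 36.1 ± 1.34 to 51.9 ± 0.508 FPKM (log2 fold change 0.51). Of its exonic bases, 24.7% overlap Gm45208 on the same strand, itself at means of 0 FPKM (PBS) and 0.906 FPKM (nanoparticles).

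Atg9a, the scramblase carried by small vesicles, overlapped between groups at 22.2 ± 1.26 and 21.1 ± 0.715 FPKM (log2 fold change -0.07; limma adjusted p = 0.215), but was called lower on the TPM scale (-0.22; limma adjusted p = 0.00205). Of its exonic bases, 31.8% overlap Gm29253 on the same strand, for which no values were given. Vmp1, an endoplasmic reticulum scramblase needed for closure of the membrane, was the most abundant of these 7 genes. It read 76.2, 72.1 and 73.4 FPKM with PBS and 65.1, 68.5 and 65.1 FPKM with nanoparticles, a small fall with separate groups (log2 fold change -0.16; limma adjusted p = 0.00138). The microRNA gene Mir21a lies within its exons on the same strand.

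The conjugation system split evenly, with 3 genes higher and 3 lower. Atg3, the E2-like enzyme that transfers LC3 to lipid, read 13, 13.2 and 12.8 FPKM with PBS and 20.9, 18.9 and 19.9 FPKM with nanoparticles, the largest rise of this role (log2 fold change 0.58). Atg12, the ubiquitin-like protein joined to ATG5, rose from 15 ± 0.315 to 18.9 ± 0.245 FPKM (log2 fold change 0.32). Atg16l1, which places the ATG12-ATG5 conjugate on the membrane, rose from 12.5 ± 0.833 to 16.4 ± 0.688 FPKM (log2 fold change 0.37).

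The other genes of the conjugation system fell. Atg7, the E1-like enzyme of both conjugation branches, read 8.54, 8.62 and 7.88 FPKM with PBS and 3.28, 4.35 and 3.64 FPKM with nanoparticles, 2.22-fold lower with no overlap (log2 fold change -0.98 with a standard error of 0.083; limma adjusted p = 1.94e-06). Atg5, the partner of ATG12, read 8.6, 8.6 and 8.64 FPKM with PBS and 5.22, 4.67 and 4.45 FPKM with nanoparticles (log2 fold change -0.74). Atg10, the E2-like enzyme that joins ATG12 to ATG5, was the lowest of the 39 genes, at 1.43, 1.68 and 1.77 FPKM with PBS and 0.409, 0.184 and 0.321 FPKM with nanoparticles. It passed the filter on low values only through the PBS libraries, so its direction was fixed by the filter.

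None of the 4 genes for ATG4, the proteases that prime LC3 and GABARAP proteins and release them from membranes, was called higher. Atg4b, the most abundant, fell from 15.4 ± 0.713 to 12.4 ± 0.634 FPKM (log2 fold change -0.29; limma adjusted p = 0.000502). Atg4c read 5.82, 6.13 and 6.93 FPKM with PBS and 1.61, 1.53 and 1.87 FPKM with nanoparticles, 3.77-fold lower (log2 fold change -1.45 with a standard error of 0.079; limma adjusted p = 7.33e-08). Atg4a overlapped between groups, at 3.89 ± 0.555 and 3.83 ± 0.452 FPKM (adjusted p = 0.885, limma). Atg4d had separate groups, 4.6 ± 0.265 and 4.99 ± 0.119 FPKM, but did not pass (adjusted p = 0.14, limma), and 19.3% of its exonic bases overlap Kri1 on the opposite strand. It was called higher with median-of-ratios scaling (0.15; limma adjusted p = 0.0335).

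The LC3 and GABARAP genes, whose products carry the lipid anchor, were among the more abundant, and 4 of 5 rose. Map1lc3b, the LC3 gene most used as an autophagosome marker, read 82.3, 87.2 and 84 FPKM with PBS and 130, 133 and 133 FPKM with nanoparticles (log2 fold change 0.64 with a standard error of 0.029; limma adjusted p = 2.01e-08). Map1lc3a rose from 10.7 ± 0.561 to 15.2 ± 0.925 FPKM (log2 fold change 0.47). Gabarapl1 rose from 36.3 ± 0.655 to 45 ± 1.66 FPKM (log2 fold change 0.3), and Gabarapl2 from 37.8 ± 1.05 to 48.9 ± 1.13 FPKM (log2 fold change 0.36). Of the exonic bases of Gabarapl1, 28.3% overlap 1700101I11Rik on the opposite strand. Gabarap, the most abundant of the family, went the other way, with 155, 165 and 150 FPKM in the PBS libraries and 134, 136 and 142 FPKM in the nanoparticle libraries (log2 fold change -0.18; limma adjusted p = 0.00129).

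Of the 5 cargo receptors, 2 rose, 1 fell and 2 were not called. Sqstm1, which encodes p62, the receptor for ubiquitinated cargo, had the highest level of the 39 genes, 609, 608 and 607 FPKM with PBS and 583, 592 and 587 FPKM with nanoparticles. All treated libraries were below all controls, by 1.04-fold, and the difference did not pass (log2 fold change -0.05 with a standard error of 0.022; limma adjusted p = 0.0546). It passed as lower on the TPM scale (log2 fold change -0.2) and with no filter on low values (-0.05, adjusted p = 0.0306), and its sign turned with median-of-ratios scaling (0.02, not called). Of its exonic bases, 17.3% overlap Mrnip on the opposite strand, at 5.92 FPKM with PBS. Nbr1, a receptor that works with p62, rose from 52.3 ± 0.536 to 63.3 ± 0.429 FPKM (log2 fold change 0.27).

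Optn, the optineurin gene, rose from 21.1 ± 1.21 to 24.7 ± 0.248 FPKM (log2 fold change 0.22), a rise that did not pass on the TPM scale (0.07). Tax1bp1 stood at 38.4 ± 0.648 and 40.5 ± 1.03 FPKM with separate groups and was not called (log2 fold change 0.07; limma adjusted p = 0.0507), but passed as higher with median-of-ratios scaling (0.14) and without nanoparticle library 1 (0.09, adjusted p = 0.026). Calcoco1, which encodes a receptor for Golgi and endoplasmic reticulum cargo, read 23.8, 26.1 and 24.1 FPKM with PBS and 13.2, 14.6 and 15.4 FPKM with nanoparticles, 1.71-fold lower (log2 fold change -0.74; limma adjusted p = 1.1e-06). The Nbr1 to Calcoco1 ratio was 2.12 ± 0.0842 with PBS and 4.41 ± 0.311 with nanoparticles.

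Stx17, the SNARE of the closed autophagosome, read 8.03, 10.1 and 8.36 FPKM with PBS and 5.1, 2.99 and 3.8 FPKM with nanoparticles. It was 2.23-fold lower with separate groups, but its libraries were the most spread of the called genes (log2 fold change -1.0 with a standard error of 0.155; limma adjusted p = 0.000431).

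**Figure D2:**
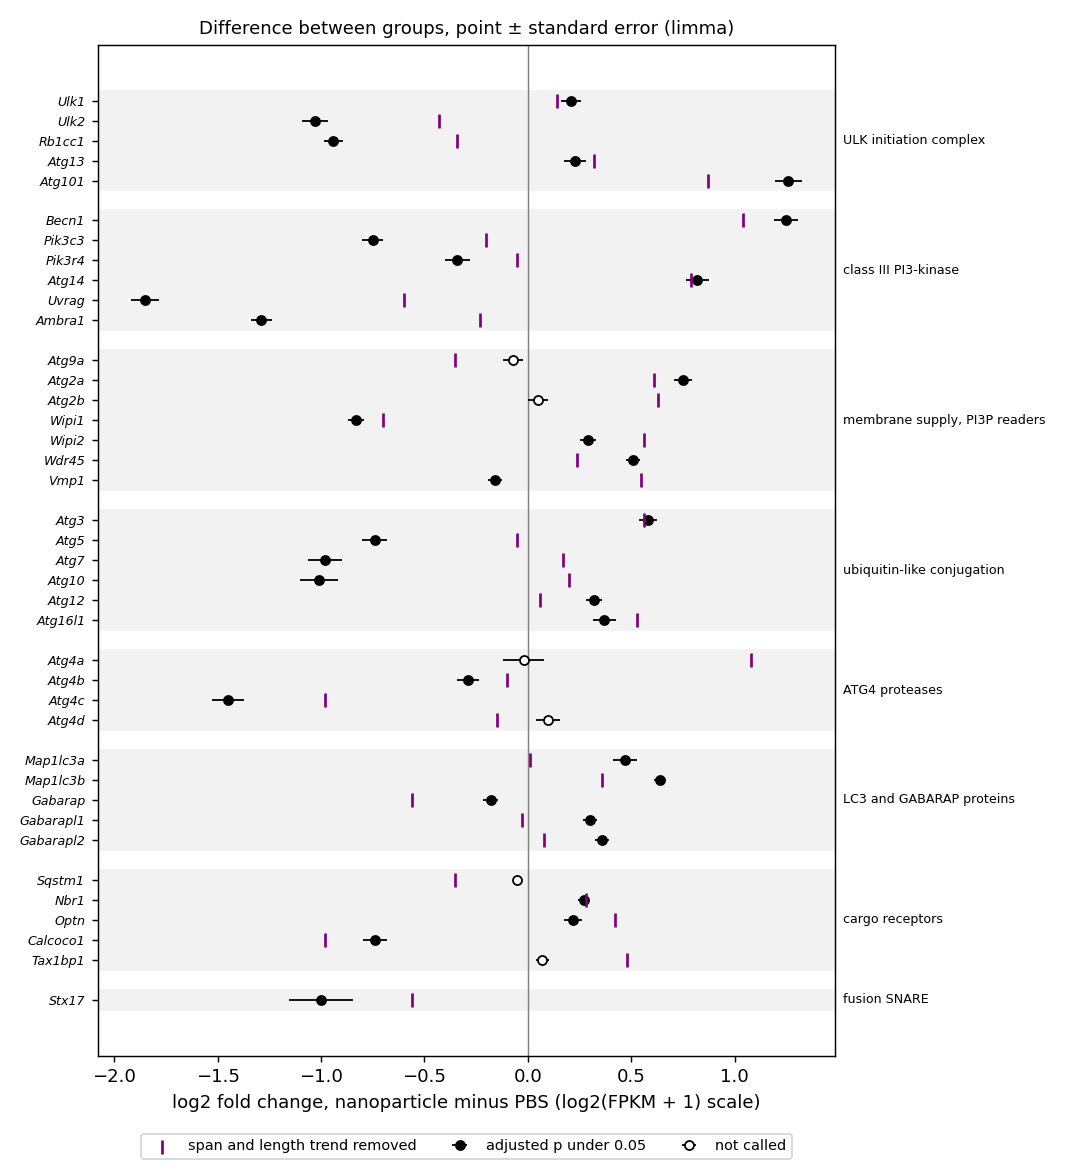
Log2 fold change of each autophagy gene, nanoparticle minus PBS on the log2(FPKM + 1) scale, with its standard error (3 libraries per group). Filled points are the 33 genes with an adjusted p under 0.05, open points the 6 others, and vertical ticks the value once the dependence on span and length was subtracted.

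Direction followed the genomic span of the genes, the distance from gene start to gene end in GENCODE M21. The 17 genes that rose spanned 1.78 to 43.4 kb with a median of 20.7 kb, and the 16 that fell spanned 3.81 to 289 kb with a median of 72.9 kb. None of the 13 genes of 60 kb or more was higher, 11 were lower and 2, Atg2b and Atg4a, were not called. Among the 11 is Atg10, with the longest span of the 39 genes (289 kb), whose direction was fixed by the filter. Atg10 also enters the correlations below. The 60 kb and 15 kb limits used here were chosen after the values were seen. Of all 2319 tested genes of 60 kb or more, 84.1% were lower and 8.75% higher, with a median log2 fold change of -0.86, against -0.98 for the 13 autophagy genes. Of the 11 genes under 15 kb, 7 were higher, 3 were not called and 1, Gabarap, was lower. Among all tested genes of that span 58.9% were higher and 26.4% lower. Of the 15 genes from 15 to 60 kb, 10 were higher, 4 lower and 1 not called, with a median log2 fold change of 0.23. Among all tested genes of that span 40.6% were higher and 43.6% lower, with a median of -0.03. Pearson's r between log2 span and log2 fold change was -0.65 and Spearman's rho -0.68 across the 39 genes, and -0.48 and -0.49 across 10836 tested genes. Genes are not independent replicates, and all points share the same 6 libraries.

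Both opposite pairs of the initiation and lipid kinase complexes described above had the longer span in the gene that fell. Ulk1 spans 25.6 kb (chromosome 5, 110784488 to 110810097) and Ulk2 79.4 kb (chromosome 11, 61775649 to 61855073). Atg14 spans 29.8 kb (chromosome 14, 47540893 to 47570649) and Uvrag 256 kb (chromosome 7, 98885021 to 99141141). Atg2a, which rose, spans 20.7 kb, and Atg2b, which was not called, 69.1 kb. Wipi1 and Wipi2 had similar spans of 38.6 and 42.9 kb but opposite directions, and Calcoco1, at 15.4 kb, and Gabarap, at 3.81 kb, fell without a long span.

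The trend of fold change with span and exonic length was fitted to all tested genes and subtracted from the nanoparticle libraries. Higher or lower then means relative to tested genes of like span and length. The fitted trend was taken as free of error. On that scale 17 autophagy genes were higher and 13 lower, beside 40.6% and 43.8% of all tested genes, but they were partly other genes. Pik3r4, Atg5, Atg7, Atg10 and Atg4b, all lower before, were no longer called, with log2 fold changes of -0.05, -0.05, 0.17, 0.2 and -0.1. Vmp1 turned from lower to higher (0.55), and Atg2b (0.63), Atg4a (1.08) and Tax1bp1 (0.48) were called higher. The FPKM of Vmp1 itself was lower with nanoparticles, and those of Atg2b and Atg4a overlapped between groups. Map1lc3a, Gabarapl1, Gabarapl2 and Atg12 lost their calls as higher, with log2 fold changes of 0.01, -0.03, 0.08 and 0.06, while Sqstm1 and Atg9a were called lower at -0.35 each and Atg4d at -0.15. Atg101 (0.87), Becn1 (1.04), Atg14 (0.79) and Atg2a (0.61) stayed higher, and Uvrag (-0.6), Atg4c (-0.98), Wipi1 (-0.7), Calcoco1 (-0.98) and Gabarap (-0.56) stayed lower. The part that gene length plays in the differences was not tested.

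**Figure D3:**
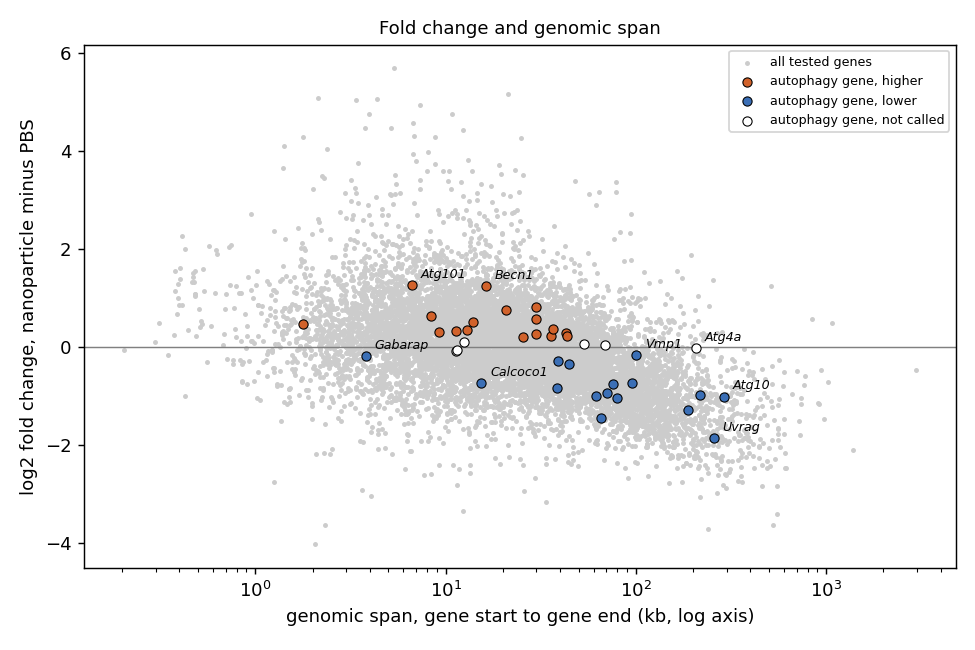
Log2 fold change (nanoparticle minus PBS) against genomic span in kb (log axis) for all tested genes with a span (grey) and the 39 autophagy genes (coloured by call). No autophagy gene of 60 kb or more was higher, and the grey cloud also falls with span.

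Genes outside the 39 that act on the same pathway were counted from 5 lists, drawn up with earlier results of these data known. Of 9 transcription factors linked to autophagy genes, 8 were lower and 1 higher, beside 46% and 40.5% of all tested genes. With the span trend removed 5 were lower and 2 higher, beside 43.8% and 40.6% of all tested genes. Against a 1.5-fold change 2 were lower and 1 higher, beside 2341 and 1853 of all 10863 tested genes. Tfeb, the main activator of the CLEAR genes, read 8.33, 8.03 and 7.14 FPKM with PBS and 2.75, 2.33 and 3.02 FPKM with nanoparticles, 2.9-fold lower (log2 fold change -1.26 with a standard error of 0.083; limma adjusted p = 3.23e-07). Its relative Tfe3 fell from 25.1 ± 0.364 to 20.6 ± 0.929 FPKM (log2 fold change -0.27). The exception was Ddit3, which encodes CHOP (log2 fold change 3.34).

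The nutrient and energy control list held 33 genes, of which 30 were tested. Of these, 10 were higher, 13 lower and 7 not called, beside 40.5% higher and 46% lower of all tested genes. The median log2 fold change was 0. With median-of-ratios scaling 14 were higher and 12 lower, beside 4699 and 4690 of all 10866 genes tested on that scale. Mtor, the kinase that restrains ULK1, stood at 10 ± 0.143 and 9.03 ± 0.218 FPKM (log2 fold change -0.14; limma adjusted p = 0.0137). That call was lost with median-of-ratios scaling (-0.08). Relative to genes of like span and length, with the span trend removed, the sign turned (0.69). Mlst8, a subunit shared by both mTOR complexes, had the largest rise, from 3.33 ± 0.315 to 9.43 ± 0.7 FPKM. The largest fall was that of Trib3, a pseudokinase that binds AKT, from 60.3 ± 1.92 to 13 ± 0.507 FPKM. Prkaa2, Rragb and Rragd were below the level tested.

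Of 18 tested receptors and adaptors of mitophagy, ER-phagy and other selective routes, 12 were lower and 6 higher, with a median log2 fold change of -0.38, beside 46% and 40.5% of all tested genes. Against a 1.5-fold change 6 were lower and 3 higher, beside 2341 and 1853 of all 10863 tested genes. Bnip3, a mitophagy receptor, fell from 42.3 ± 2.08 to 19.5 ± 1.28 FPKM (log2 fold change -1.08). Its homologue Bnip3l fell from 92.4 ± 1.38 to 80.7 ± 2.19 FPKM (log2 fold change -0.19). Pink1, the kinase that marks damaged mitochondria, fell from 18.1 ± 0.165 to 9.11 ± 0.0923 FPKM (log2 fold change -0.92). Calcoco2 was below the level tested. The largest fall was that of Wdfy3, a scaffold for aggregate clearance, at -1.72. Ncoa4, the receptor for ferritin, had the largest rise, reading 30.3, 31 and 33.1 FPKM with PBS and 86.4, 85.8 and 85.8 FPKM with nanoparticles (log2 fold change 1.42 with a standard error of 0.036; limma adjusted p = 4.73e-10).

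Of 24 accessory and late-stage factors, 9 were higher, 12 lower and 3 not called, beside 40.5% higher and 46% lower of all tested genes. With the span trend removed 13 were higher and 7 lower, beside 40.6% and 43.8% of all tested genes. Ykt6, a SNARE that can act beside STX17 in fusion, had the largest rise, from 19.8 ± 0.918 to 43.7 ± 1.99 FPKM (log2 fold change 1.11), where Stx17 itself fell. Tbc1d5, a regulator of RAB7, stood at 6.27 ± 0.339 FPKM with PBS against 0.52 ± 0.0773 FPKM with nanoparticles (log2 fold change -2.26). Like Atg10 it passed the filter on low values through the PBS libraries alone, which fixed its direction. Of 20 lysosomal membrane proteins and hydrolases, 9 were higher, 5 lower and 6 not called, with a median log2 fold change of 0.03. All tested genes were 40.5% higher and 46% lower. On the TPM scale 6 of the list were higher and 12 lower, beside 34.5% and 51.4% of all genes tested on that scale. Lamp1 rose from 302 ± 3.59 to 459 ± 6.17 FPKM (log2 fold change 0.6) and Ctsd, the cathepsin D gene, from 307 ± 8 to 408 ± 7.91 FPKM (log2 fold change 0.41). Scarb2, a lysosomal membrane protein, had the largest fall (log2 fold change -1.3). The share called was 70% in the lysosomal list, 76.7% in the nutrient list, 87.5% in the accessory list and 100% in the other lists, beside 86.4% of all tested genes.

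**Figure D4:**
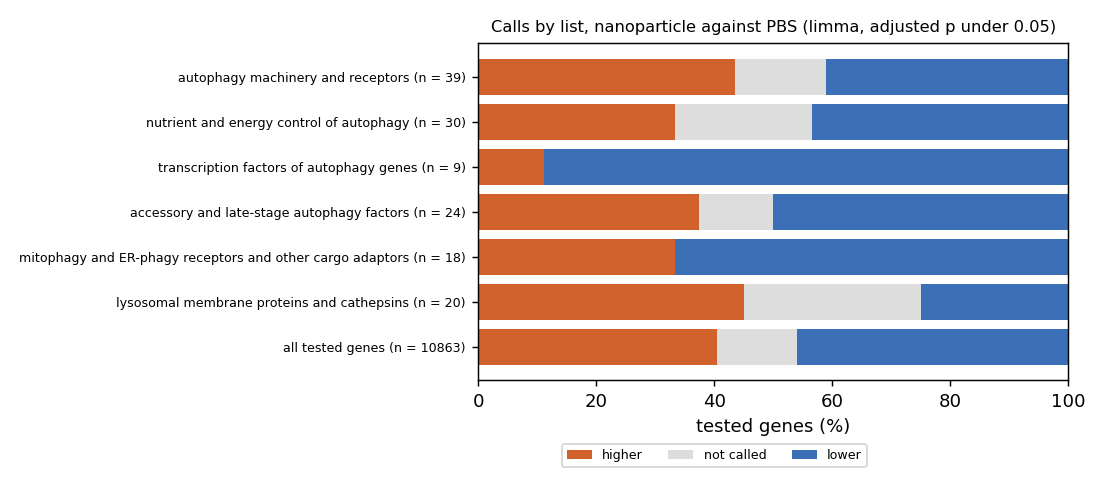
Percent of tested genes called higher, not called or called lower with nanoparticles (limma, adjusted p under 0.05) for the autophagy genes, the 5 other lists and all tested genes. The autophagy genes, at 43.6% higher and 41% lower, lie near all tested genes at 40.5% and 46%.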

How the data were processed

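RNA from 3 PBS and 3 nanoparticle samples was read by mRNA sequencing after TRIzol extraction, per the labels' protocols. The authors deposited FPKM values per gene, a unit inferred from the values because the file header does not name it. The tools STAR and featureCounts and the builds GRCm38 and mm10 are named per the submitters' processing notes. Not given in the sources used here are the FPKM program, annotation release and strand setting. No read unit could be recovered (no 1% bin held over 1.77% of the ratios between low values, those below 0.2 FPKM), and depth is unknown. The 701 features without a gene identifier, 0.631% to 0.67% of summed FPKM, stayed out. The scale was log2(FPKM + 1), the filter kept genes reaching 1 FPKM in 3 libraries, and groups were fitted with limma 3.58.1 in R 4.3.3 (trend and robust settings, statmod 1.5.0, no replicate block). The rest used pandas 2.3.3, numpy 2.4.6 and matplotlib 3.10.9 under Python 3.11.15. The fit was run on simulated data with independent noise and few genes changed. These data differ from that setting, so the run does not vouch for the calls given here. All 39 genes were named, with the largest called rise and fall of each other list and 8 genes chosen by their role, some of them already among those. The genes and lists were chosen with earlier results of these data known. Promoter windows were first picked by size of change (Atg101, Atg14, Uvrag and Atg4c, with Atg3 for its palindrome). That choice was replaced, once the motif matches and directions were known, by all windows with CACGTG; all 5 motifs searched are reported. Spans and exon overlaps come from GENCODE M21; reads from overlapping genes cannot be told apart without strand. Some items are not reported here. Alternatives were another pseudocount, no filter, a 1.5-fold test, a replicate block, TPM and median-of-ratios scaling, removal of the span and length trend, and leaving out each library.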

Additional observations from a re-analysis of the deposited data

How the results depend on the processing

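With 3 libraries per group and an unknown read depth, small differences rest on the spread between libraries alone. The 39 autophagy genes gave 17 higher and 16 lower with a pseudocount of 0.1, beside 4387 and 4984 of all 10863 tested genes. With no filter they gave 17 and 17, beside 8445 and 5227 of 20124. They gave 17 to 18 and 15 to 16 when each library was left out in turn. All genes then gave 4077 to 4328 higher and 4663 to 4947 lower, of 10610 to 10627 tested. The 15 came with a PBS library left out, when Atg10 could not be tested. The labels do not say whether replicate numbers pair the libraries. Correlations of same-numbered deviations were -0.014, -0.043 and 0.041, and those of other pairs ran from -0.077 to 0.094. With 3 libraries per group, these values cannot settle whether a culture or day was shared. The replicate block gave 17 higher and 16 lower, beside 4389 and 4982 of all 10863 tested genes, and changed 0 of 39 calls.

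Tested against a 1.5-fold change, 4 of the 39 genes were higher and 12 lower, beside 1853 and 2341 of all 10863 tested genes. On that test the nutrient list had 5 higher and 6 lower, the transcription factors 1 higher and 2 lower, and the accessory list 5 higher and 4 lower. The mitophagy and ER-phagy list had 3 higher and 6 lower, and the lysosomal list 0 higher and 1 lower. After subtracting the span and length trend, the transcription factors had 2 higher and 5 lower and the accessory list 13 higher and 7 lower. The lysosomal list had 9 higher and 9 lower. All tested genes were then 40.6% higher and 43.8% lower. On the TPM scale the lysosomal list had 12 lower, beside 51.4% of all genes tested on that scale. The causes were not tested.

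Signs turned on the TPM scale for Atg2b (-0.10), Atg4d (-0.03) and Tax1bp1 (-0.08), and with median-of-ratios scaling for Atg4a (0.04) and Sqstm1 (0.02). With the span trend removed they turned for Atg4a (1.08), Atg4d (-0.15), Atg7 (0.17), Atg10 (0.20), Gabarapl1 (-0.03), Vmp1 (0.55) and Mtor (0.69). Those values are relative to genes of like span and length. Atg4a also turned without PBS replicate 1 (0.06) and without nanoparticle replicate 2 (0.05). Atg10 and Tbc1d5 could not be tested with a PBS library left out.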
